A study of Homo sapiens with 8 samples.

Results

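The anaphase-promoting complex, or APC/C, was followed through 10 genes in A549, an established line of human lung adenocarcinoma cells. The genes were chosen by name: 7 core subunits (ANAPC1, ANAPC4, ANAPC5, ANAPC7, CDC16, CDC23 and CDC27), the coactivators CDC20 and FZR1, and the inhibitor FBXO5. Each matched 1 of the 66206 rows in both deposited tables through GENCODE release 29, and all 10 passed the filter on low values, which left 14662 genes tested in 1 table and 13903 in the other. RNA was profiled in 8 libraries, 2 in each of 4 groups. In 1 experiment the cells were transfected with gapmers, antisense oligonucleotides with locked nucleic acid (LNA) ends that lead RNase H to their target RNA: either scramble gapmers or gapmers to the lncRNA LY6K-AS, at 25 pmol each. In the other experiment they received 40 pmol of a scramble siRNA or of siRNA against YWHAG, which encodes a phosphoserine-binding adaptor protein. All 4 groups are the same line in the same medium with the same transfection reagent. The knockdown libraries of each experiment carry oligonucleotide-like numbers in their titles, so they may have received separate oligonucleotides. Nothing in the labels ties replicates to separate cultures; the p-values cover the spread of these libraries alone, and that spread may be technical. The study's title concerns mitotic progression, and the question put to these genes was whether the constitutive subunits and the cell-cycle-regulated CDC20 and FBXO5 differed in level after each knockdown, each against its own controls.

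The APC/C is a ubiquitin ligase that marks mitotic proteins for destruction by the proteasome. Its subunits are made throughout the cell cycle and form the platform, the catalytic arm and the arc of repeat-containing subunits that binds a coactivator. The genes called core subunits here are of the platform and the arc. ANAPC2 and ANAPC11 of the catalytic arm are counted among the other APC/C subunits. CDC20 is the coactivator of early mitosis and is held by the mitotic checkpoint until chromosomes are attached, and its mRNA peaks late in the cycle. FZR1, also called CDH1, takes over at mitotic exit and in G1 phase, and FBXO5, also called EMI1, inhibits the complex from the G1/S transition until mitosis. In proliferating tumour lines CDC20 is abundant, and bulk RNA does not separate how many cells are in mitosis from how much CDC20 RNA each such cell holds: fewer cells of a stage and less RNA per cell cannot be told apart here.

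The number of reads behind each library's values lay between 26.2 and 34.0 M in the LNA table and between 33.7 and 34.6 M in the siRNA table. LNCOC1 is the gene antisense to LY6K and stands here for LY6K-AS. Its reads numbered 34 and 17 in the scramble LNA libraries and 3 and 8 after knockdown, below the filter on low values. YWHAG stood at 163 and 158 RPKM (reads per kilobase of exon, scaled to the library total) in the scramble siRNA libraries and at 13.5 and 4.91 RPKM in the YWHAG siRNA libraries, with a log2 change of -4.12. LNCOC1 and YWHAG were therefore lower in every library labelled as the knockdown, LNCOC1 on few reads and without a test. No label pairs LNCOC1 with LY6K-AS. It shares 2876 exon bases, 50.6% of its exon length, with LY6K on the opposite strand, and strand use in the counting is not known. The 8 epithelial and A549 markers summed to 3124 to 3357 RPKM in the LNA table and 3553 to 4368 RPKM in the siRNA table. In the scramble LNA libraries AKR1B10 made up most of the sum, at 2130 and 2013 RPKM. EPCAM was the lowest of the markers there, at 1.82 and 1.75 RPKM. In contrast, 4 of 5 immune markers, 4 of 4 endothelial markers and 4 of 5 fibroblast markers were below the filter in both tables, CD14 and COL1A1 being the exceptions.

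In the controls the members covered a wide range of levels, and CDC20 was the most abundant in both tables. It averaged 72.7 ± 1.11 RPKM (SD, n = 2) in the scramble LNA libraries and 46.9 ± 0.733 RPKM (SD, n = 2) in the scramble siRNA libraries. CDC27, a scaffold subunit that contacts the coactivators, came next, followed by CDC16, its neighbour in the arc. ANAPC4, a platform subunit, was the lowest, at 2.92 ± 0.0709 and 3.26 ± 0.0703 RPKM (SD, n = 2 in each). Between these ends the scramble LNA order was ANAPC5, ANAPC7, FZR1, CDC23, ANAPC1 and FBXO5, and in it the libraries of ANAPC5 and ANAPC7, and those of FZR1 and CDC23, overlapped. The scramble siRNA order was ANAPC5, CDC23, ANAPC7, ANAPC1, FBXO5 and FZR1, with overlap between ANAPC5 and CDC23, between CDC23 and ANAPC7, and between ANAPC1 and FBXO5. The highest core subunit exceeded the lowest by 6.21 and 6.47 times in the scramble LNA libraries and by 8.50 and 8.71 times in the scramble siRNA libraries. The tables were normalized separately, so levels are set side by side and not compared between them. Levels of ANAPC1 and CDC16 in the LNA table are approximate, because they were rescaled with gene models of another version than the table's, whose exon length could not be checked. In the siRNA table their levels are as deposited. The ratio between libraries within a table does not depend on that length.

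**Figure D1:**
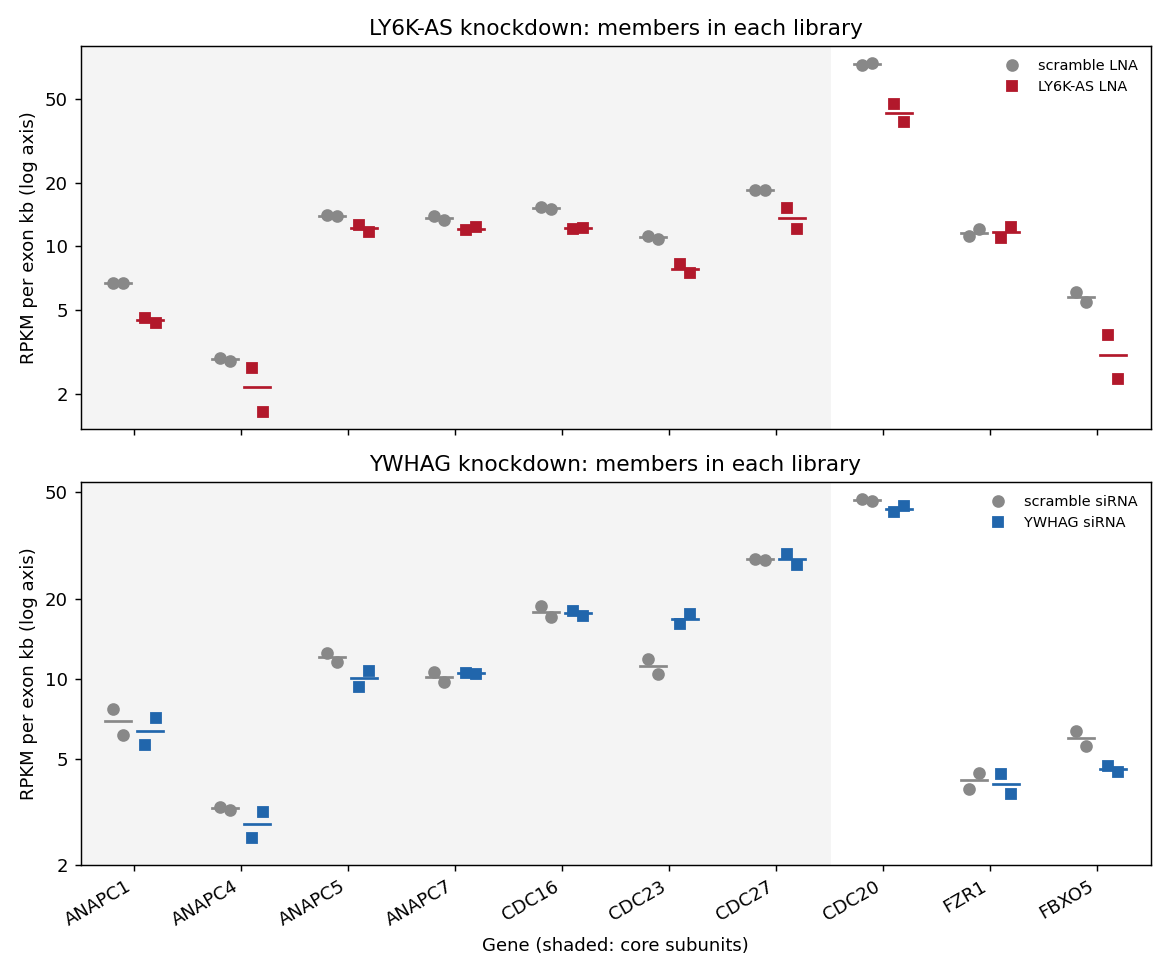
Level of each of the 10 genes in every library, as RPKM per kilobase of merged exon on a log axis, with the LNA table above and the siRNA table below; each symbol is 1 library, each bar a group mean, and the shaded columns are the core subunits. After LY6K-AS knockdown (red) 9 of 10 genes lie below both controls (grey), whereas after YWHAG knockdown (blue) 4 do and CDC23 lies above. Of all genes tested, 30.5% and 30.8% lie below both controls, and after YWHAG knockdown 20.4% lie above.

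The promoter windows of CDC20 and FBXO5 are shown because these are the cell-cycle-regulated members. Both windows shown also hold letter matches to paired elements known from late cell-cycle promoters. The CDC23 window is shown because CDC23 is the core subunit that went separate ways in the 2 experiments. The sequences are from RefSeq on GRCh38.p14 and read 5′ to 3′ on the gene's own strand. They cover the 250 bases before an annotated start, less 26 (CDC20), 58 (FBXO5) and 20 bases (CDC23) that lie in a GENCODE exon. Capitals mark the cell-cycle genes homology region (CHR, TTTGAA or TTCGAA), the CCAAT box (CCAAT) and an E2F core site (GCGGGAA), each on either strand.
CDC20, chr1:43358731-43358954, plus strand: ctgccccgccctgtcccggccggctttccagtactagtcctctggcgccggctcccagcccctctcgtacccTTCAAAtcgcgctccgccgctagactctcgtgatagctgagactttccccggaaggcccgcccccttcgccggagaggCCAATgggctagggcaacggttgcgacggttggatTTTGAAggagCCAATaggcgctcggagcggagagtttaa
FBXO5, chr6:152983042-152983233, minus strand: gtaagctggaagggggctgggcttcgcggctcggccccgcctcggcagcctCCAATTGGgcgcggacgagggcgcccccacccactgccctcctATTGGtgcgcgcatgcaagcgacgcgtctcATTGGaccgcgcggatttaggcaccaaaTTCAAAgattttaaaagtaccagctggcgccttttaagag
CDC23, chr5:138213344-138213573, minus strand: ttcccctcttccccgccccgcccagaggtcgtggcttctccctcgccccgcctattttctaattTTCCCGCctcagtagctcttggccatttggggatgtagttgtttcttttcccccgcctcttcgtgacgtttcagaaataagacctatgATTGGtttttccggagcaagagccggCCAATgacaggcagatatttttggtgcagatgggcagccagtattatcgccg
In the CDC20 window a CHR match at -65 to -60 sits between CCAAT matches at -100 to -96 and -55 to -51, counted back from the annotated start at base -1 as the last base before it, and a second CHR match lies at -178 to -173. The FBXO5 window has its CHR match at -40 to -35 and CCAAT matches beginning at -141, -138, -98 and -68, of which those at -141 and -138 overlap by 2 bases. A second FBXO5 window, chr6:152983580-152983829, holds none of these matches. CDC23 has an E2F core site at -186 to -180 and CCAAT matches beginning at -98, -72 and -17, the last in the exon bases not shown, and no CHR match. All 10 members were found in the promoter table, in 12 windows of which FBXO5 and FZR1 have 2 each. A member was counted if any of its windows had the match, whereas the share beside it is per window. The CHR and E2F matches of FZR1 lie in separate windows. A CHR match was present in 4 of 10 members (CDC20, FBXO5, FZR1 and ANAPC7) against 14.3% of 35116 windows, a CCAAT match in 6 of 10 against 32% and an E2F core site in 4 of 10 (CDC16, CDC23, CDC27 and FZR1) against 5.52%. CHR and CCAAT together in a window were found in CDC20 and FBXO5 only among the members, 2 of 10, against 5.05% of windows, and the TATA box (TATAAA) in 0 of 10 against 10.7%. These letters are a description of the windows and not evidence of a bound site.

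After LY6K-AS knockdown, CDC20 and FBXO5 were the members with the largest differences from their controls, the core subunits were lower by less, and FZR1 was at 0.00 on the log2 scale. With the trend of the values over transcript GC content removed, FZR1 was at -0.33, within the core's range of -0.38 to -0.06. No member passed the adjusted threshold of 0.05 in limma, and neither did any of the 14662 genes tested (0% called). Without adjustment, 6 of 10 members had p under 0.05 and a lower level, against 11.7% of all genes tested. Both knockdown libraries lay below both controls for 9 of 10 members, against 30.5% of all genes, and above both controls for 0 of 10, against 31.4%. An unadjusted p under 0.05 with a higher level was found for 0 of 10, against 13.6%.

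CDC20 (chr1:43358955-43363203, plus strand, hg38) measured 71.9 and 73.5 RPKM in the scramble LNA libraries and 47.1 and 38.7 RPKM in the LY6K-AS knockdown libraries. Both knockdown libraries lay well below both controls, the second further than the first. The knockdown mean was 0.59 of the control mean, and the log2 change was -0.76 ± 0.13 (SE, n = 2 against 2; limma adjusted p = 0.103). Of all genes tested, 1.96% had a lower log2 change. CDC20P1, a pseudogene copy whose reads the counting could have split from CDC20, held 113 and 120 reads in the controls and 60 and 46 after knockdown, beside 4980 and 4576, and then 2513 and 2434, for CDC20. FZR1 (chr19:3506273-3538330, plus strand), the coactivator of mitotic exit, measured 11.2 and 12.01 RPKM in the controls and 10.9 and 12.3 RPKM after knockdown, so the knockdown libraries fell on either side of the controls. Its log2 change was 0.00 ± 0.10 (SE; limma adjusted p = 0.984), with a 95% interval from -0.28 to 0.28.

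FBXO5 (chr6:152970519-152983579, minus strand) measured 6.04 and 5.45 RPKM in the controls and 3.79 and 2.34 RPKM after LY6K-AS knockdown. Both knockdown libraries were again below both controls and apart from each other. The knockdown mean was 0.533 of the control mean, and the log2 change was -0.75 ± 0.20 (SE, n = 2 against 2; limma adjusted p = 0.139). A lower log2 change was found for 1.98% of genes. The 95% intervals, -1.30 to -0.21 for FBXO5 and -1.09 to -0.42 for CDC20, overlapped. With the GC trend removed the values were -0.58 for FBXO5 and -0.91 for CDC20.

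Among the core subunits all 7 were lower after LY6K-AS knockdown, with a median log2 change of -0.33. Both knockdown libraries lay below both controls in 7 of 7, against 30.5% of all genes tested. In limma 4 of 7 were lower at an unadjusted p under 0.05, against 11.7% of all genes. Over all genes tested the median was 0.00 and 49.7% were lower. ANAPC1 (chr2:111611639-111884690, minus strand), the largest platform subunit, measured 6.72 and 6.68 RPKM in the controls and 4.56 and 4.34 RPKM after knockdown, a log2 change of -0.50 ± 0.09 (SE; limma adjusted p = 0.104). CDC23 (chr5:138187648-138213343, minus strand), a repeat-containing subunit of the arc, measured 11.2 and 10.8 RPKM in the controls and 8.20 and 7.46 RPKM after knockdown, a log2 change of -0.45 ± 0.09 (SE; limma adjusted p = 0.111). In both genes the pairs of libraries lay close together and apart from the other pair.

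CDC27 (chr17:47117703-47189422, minus strand) measured 18.4 and 18.5 RPKM in the controls and 15.1 and 12.1 RPKM after knockdown (log2 change -0.42 ± 0.13 SE; limma adjusted p = 0.160). CDC16 (chr13:114234887-114272723, plus strand) measured 15.3 and 14.99 RPKM and then 12.1 and 12.2 RPKM (log2 change -0.30 ± 0.08 SE; limma adjusted p = 0.142). These arc subunits lay below their controls in both libraries, CDC27 with a wide gap between its knockdown libraries and CDC16 with almost none. ANAPC4 (chr4:25377213-25418498, plus strand) measured 2.97 and 2.87 RPKM in the controls and 2.66 and 1.64 RPKM after knockdown, and most of its log2 change of -0.33 ± 0.18 (SE; limma adjusted p = 0.322) came from the second library. ANAPC5 (chr12:121308245-121399896, minus strand), also of the platform, measured 14.0 and 13.9 RPKM and then 12.7 and 11.6 RPKM, a log2 change of -0.19 ± 0.09 (SE; limma adjusted p = 0.274). ANAPC7 (chr12:110372900-110403730, minus strand), at the outer end of the arc, had the smallest difference of the core, from 13.9 and 13.3 RPKM to 11.9 and 12.3 RPKM, a log2 change of -0.16 ± 0.09 (SE; limma adjusted p = 0.319).

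The second LY6K-AS knockdown library lay below the first for 7 of 10 members. With the first knockdown library left out, 8 of 10 members passed the adjusted threshold in limma, at adjusted p from 0.00231 (CDC20) to 0.0187 (ANAPC5), and with the second left out 6 of 10 passed, from 0.0116 (CDC20) to 0.0267 (CDC27). So did 7725 and 4350 of the 14662 genes tested. Those fits rest on a lone knockdown library that is assumed to vary as the controls do. Leaving out any library in turn left 9 or 10 of the 10 members lower. Log2 change was correlated with transcript GC content across genes in the LNA table (Spearman rho 0.54 over 14662 genes, which share the same 4 libraries and are not independent), and the difference between the scramble LNA libraries showed it too (rho 0.24). The core subunits have 38.3 to 47.3% GC and FBXO5 36.9%, against a median of 49.8% over genes tested, while CDC20 has 56.9% and FZR1 63.2%. With that trend removed, the core had log2 changes between -0.38 and -0.06, the range in which FZR1 also lay, and CDC20 and FBXO5 stood at -0.91 and -0.58.

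After YWHAG knockdown the core subunits other than CDC23 had log2 changes between -0.24 and 0.04, CDC20 and FBXO5 were at -0.12 and -0.32, and CDC23 was the only member whose libraries were both above both controls. Of the 10 members, 4 lay below both controls (ANAPC4, ANAPC5, CDC20 and FBXO5), against 30.8% of all genes tested, and 1 lay above, against 20.4%. No member passed the adjusted threshold in limma, nor did any of 13903 genes (0% called). CDC23 alone had an unadjusted p under 0.05, as a higher level (1 of 10, against 7.51% of genes), and 0 of 10 had one with a lower level, against 8.9% (16.4% in either direction). Over all genes the median log2 change was -0.05 and 57.6% were lower.

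CDC20 measured 47.5 and 46.4 RPKM in the scramble siRNA libraries and 42.1 and 44.4 RPKM in the YWHAG knockdown libraries. Both knockdown libraries were below both controls by a small margin, and the log2 change of -0.12 ± 0.12 (SE, n = 2 against 2; limma adjusted p = 0.673) was of the size of its error. FZR1 measured 3.87 and 4.45 RPKM in the controls and 4.38 and 3.68 RPKM after knockdown, with overlap and a log2 change of -0.04 ± 0.15 (SE; limma adjusted p = 0.919). FBXO5 measured 6.34 and 5.61 RPKM in the controls and 4.70 and 4.45 RPKM after knockdown. Its knockdown libraries lay below both controls, with a log2 change of -0.32 ± 0.13 (SE; limma adjusted p = 0.323), the lowest among the members.

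CDC23 measured 11.8 and 10.4 RPKM in the scramble siRNA libraries and 16.0 and 17.5 RPKM in the YWHAG knockdown libraries. Both knockdown libraries stood well above both controls, the mean being 1.51 times that of the controls. The log2 change was 0.55 ± 0.14 (SE, n = 2 against 2; limma adjusted p = 0.236), and 95.5% of genes tested had a lower one. CDC23 shares 68 exon bases, 1.47% of its exon length, with KIF20A, a mitotic kinesin gene on the opposite strand. The sources used here do not say whether the counting used strand. KIF20A measured 19.9 and 16.0 RPKM in the controls and 24.2 and 15.1 RPKM after YWHAG knockdown. Its libraries overlapped there, where those of CDC23 did not. After LY6K-AS knockdown KIF20A lay below both controls, as CDC23 did, with a log2 change of -1.04. The log2 change after LY6K-AS knockdown minus that after YWHAG knockdown was -1.13 for KIF20A and -0.997 for CDC23. The part of KIF20A reads in the CDC23 values was not tested. Exon overlaps with other annotated genes exist for FZR1 (70 bases with MFSD12), FBXO5 (157 bases with AL080276.2), CDC27 (126 bases with AC002558.2) and ANAPC7 (683 bases with AC144548.1), and ANAPC1 and ANAPC5 overlap with non-coding genes, and their part in the counts was not tested.

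The other core subunits had log2 changes between -0.24 and 0.04 after YWHAG knockdown, and the median of the 7 was -0.02, with 4 lower and 3 higher. ANAPC5 measured 12.5 and 11.5 RPKM in the controls and 9.31 and 10.7 RPKM after knockdown (log2 change -0.24 ± 0.14 SE; limma adjusted p = 0.440), and ANAPC4 3.31 and 3.21 RPKM and then 2.53 and 3.17 RPKM (-0.15 ± 0.14 SE; adjusted p = 0.628). These platform subunits were below both controls, ANAPC4 by very little in the second library. The remaining 4 overlapped with their controls: ANAPC1 (7.72 and 6.13, then 5.62 and 7.14 RPKM), ANAPC7 (10.6 and 9.70, then 10.5 and 10.4 RPKM), CDC16 (18.7 and 17.1, then 17.9 and 17.2 RPKM) and CDC27 (28.2 and 28.0, then 29.5 and 26.8 RPKM). CDC27, the most abundant core subunit, had a log2 change of 0.00 ± 0.13 (SE; limma adjusted p = 0.997) with a 95% interval from -0.33 to 0.34. Leaving out 1 library in turn left 5 to 8 of 10 members lower, against 7 of 10 with all libraries.

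**Figure D2:**
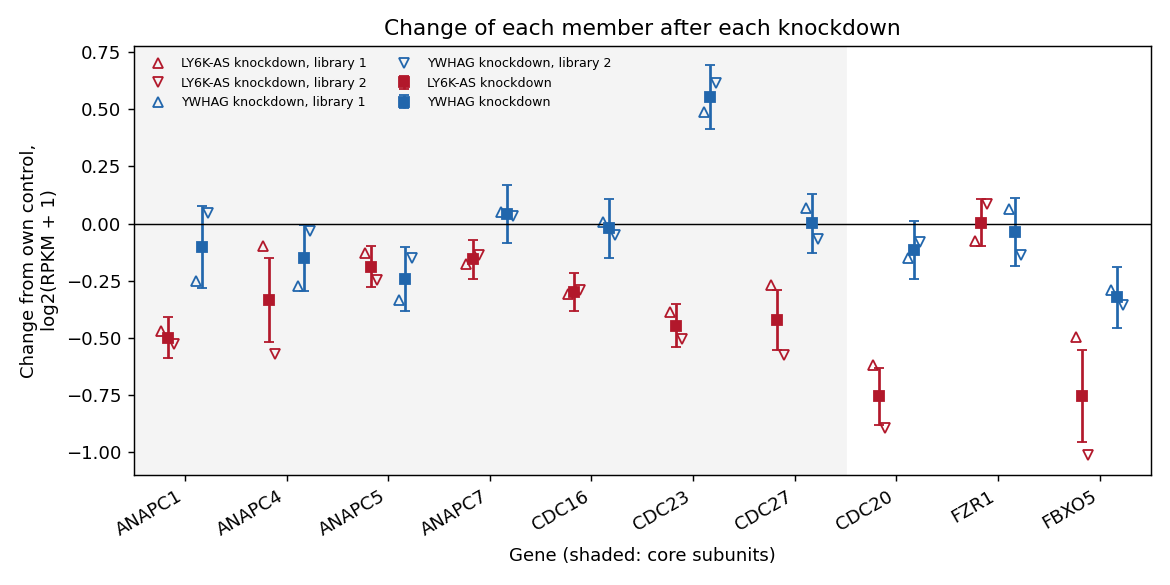
Change of each gene from the mean of its own controls on the log2(RPKM + 1) scale, for LY6K-AS knockdown (red) and YWHAG knockdown (blue); squares are the fitted change with bars of 1 SE, and open triangles are the 2 knockdown libraries. CDC20 and FBXO5 have the lowest red values, -0.76 and -0.75, and CDC23 lies at -0.45 in red and at 0.55 in blue.

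The knockdown effects were then compared with each other in a fit over all 8 libraries, LY6K-AS effect minus YWHAG effect. In limma 23 of 12861 genes (0.179% called) passed the adjusted threshold, and none was a member. An unadjusted p under 0.05 was found for 2 of 10 members, CDC23 and CDC20, both lower, against 8.86% of genes lower, 11.5% higher and 20.4% in either direction. CDC23 had the largest difference among the members, -0.997 ± 0.169 (SE; limma adjusted p = 0.0647). With 1 library left out in turn it lay between -1.08 and -0.916. For CDC20 the difference was -0.64 ± 0.18 (SE; limma adjusted p = 0.126), and adjusted p was 0.0365 without the first LY6K-AS library. For FBXO5, lower in both experiments, the difference was -0.43 ± 0.25 (SE; limma adjusted p = 0.375). The experiments differ in oligonucleotide chemistry, amount and table as well as in target, and these cannot be told apart.

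Setting CDC20 and FBXO5 against the core gave a gap, the median log2 change of the pair minus the median of the 7 core subunits. After LY6K-AS knockdown it was -0.42, with -0.28 and -0.45 in the separate libraries, and after YWHAG knockdown -0.20, with -0.23 and -0.19. All 4 knockdown libraries thus had CDC20 and FBXO5, taken as a pair, further below control than the median core subunit. This is a description with no test, since the members were chosen with earlier results known. After YWHAG knockdown FBXO5 was at -0.32 and CDC20 at -0.12, less low than the core subunits ANAPC5 (-0.24) and ANAPC4 (-0.15). With the GC trend removed the LY6K-AS gap was -0.59.

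Ratios within a library do not depend on its total, and they were added after the levels had been seen. CDC20 exceeded FZR1 by 6.44 and 6.12 times in the scramble LNA libraries and by 4.31 and 3.14 times after LY6K-AS knockdown, so both knockdown libraries lay below both controls. The same ratio was 12.3 and 10.4 in the scramble siRNA libraries and 9.61 and 12.1 after YWHAG knockdown, which overlapped. CDC20 over the median core subunit went from 5.16 and 5.53 to 3.95 and 3.33 with LY6K-AS knockdown and from 4.02 and 4.44 to 3.996 and 4.14 with YWHAG knockdown. The groups were separate for LY6K-AS and overlapped for YWHAG. FBXO5 over the median core subunit went from 0.434 and 0.410 to 0.317 and 0.201 with LY6K-AS knockdown. For YWHAG knockdown it went from 0.537 in both controls to 0.446 and 0.414, so the inhibitor was lower relative to the core in all 4 knockdown libraries. CDC20 over FBXO5 was 11.9 and 13.5 in the scramble LNA libraries and 12.4 and 16.5 after LY6K-AS knockdown, and these overlapped. In the siRNA table it was 7.48 and 8.27 in the controls and 8.96 and 9.98 after YWHAG knockdown, where both knockdown libraries lay above both controls.

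**Figure D3:**
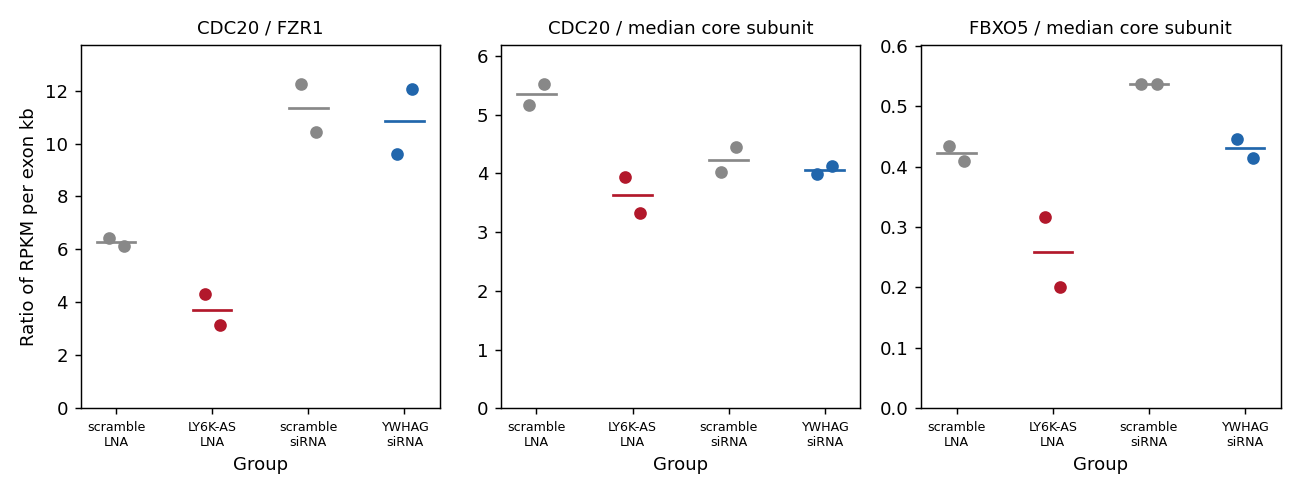
Ratio of RPKM per exon kilobase within each library for CDC20 over FZR1, CDC20 over the median core subunit and FBXO5 over the median core subunit, by group; points are libraries, bars are means and each axis starts at 0. All 3 ratios are lower in both LY6K-AS libraries than in both scramble LNA libraries, and of these 3 only the FBXO5 ratio is separate for YWHAG.

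The genes nearest to CDC20 and FBXO5 were found by the root mean square difference of log2 change over the 4 knockdown libraries, among 8377 protein-coding genes. Among the nearest to CDC20 were RAD21 (0.0234), NDC1 (0.0435), CMSS1 (0.0512) and C1orf112 (0.0926). RAD21 encodes the cohesin subunit that is cut at anaphase, after CDC20 has led to the destruction of securin, and its log2 changes were -0.65 and -0.89 in the LY6K-AS libraries and -0.16 and -0.11 in the YWHAG libraries. Nearest to FBXO5 were STX8 (0.0670), WDR76 (0.0720), PIF1 (0.0832), KIF18A (0.0845) and HMGB3 (0.0850), of which KIF18A is a kinesin of chromosome alignment. FBXO5 itself was in place 106 for CDC20, at 0.176. With 8377 candidates and 4 values, near neighbours are to be had for most patterns, and the list is a description.

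Other genes of the pathway were counted on the same fits, in lists chosen with earlier results of these data known. None had a gene past the adjusted threshold in limma in either experiment, so their members are given by direction and value. Of the 7 other APC/C subunits, 6 were lower after LY6K-AS knockdown with a median log2 change of -0.03, against 49.7% of all genes lower. Both knockdown libraries lay below both controls for 1 of 7 and above both for 1 of 7, against 30.5% and 31.4% of all genes. At an unadjusted p under 0.05 in limma 1 was lower and 1 higher, against 11.7% and 13.6% of all genes tested. ANAPC11, the catalytic RING subunit, had -0.24 and ANAPC2, its cullin partner, 0.28, and ANAPC10, a substrate receptor, -0.21. The 7 core subunits described above had a median of -0.33. After YWHAG knockdown 5 of 7 were lower, with a median of -0.04, and ANAPC16 stood at 0.48 (limma adjusted p = 0.248), ANAPC10 at -0.24 and CDC26 at -0.18, the last from the first library (-0.34 against -0.02).

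The ubiquitin-conjugating enzymes of the APC/C were lower in 3 of 3 after LY6K-AS knockdown. UBE2C, which starts the chains, had a log2 change of -1.03, UBE2S, which extends them, -0.25 and UBE2D1 -0.06. After YWHAG knockdown 2 of 3 were lower, with UBE2C at -0.43 (-0.66 and -0.19 in the separate libraries), UBE2D1 at -0.14 and UBE2S at 0.04. Of the 9 genes of the mitotic checkpoint, its complex with CDC20 and the disassembly of that complex, 9 were lower in each experiment. ANAPC15 is counted both here and among the other APC/C subunits. The median was -0.83 after LY6K-AS knockdown, with 6 lower at an unadjusted p under 0.05 (against 11.7% of genes tested), and -0.20 after YWHAG knockdown, with 1 (against 8.9%). Of all genes, 49.7% and 57.6% were lower. BUB1 and BUB1B, checkpoint kinases or kinase-like proteins, had -1.25 and -1.04 after LY6K-AS knockdown, and TRIP13, which opens the MAD2 protein, -0.83. After YWHAG knockdown MAD2L1BP had -0.44, MAD2L1 -0.41 and BUB1 -0.28. The MAD2L1 libraries overlapped with their controls, at -0.78 in the first knockdown library and -0.05 in the second.

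Of 8 regulators outside the complex, 6 were lower in each experiment, against 49.7% and 57.6% of all genes tested. FBXO43, the meiotic relative of FBXO5, had -0.68 after LY6K-AS knockdown, PLK1, the kinase that triggers FBXO5 destruction, -0.91 and CDK1 -1.11. After YWHAG knockdown PPP2R5A had 0.41, CUEDC2 0.30 and CDK1 -0.24. Of 6 substrates of the CDC20 form, 5 were lower in each experiment, with medians of -1.03 and -0.31. After LY6K-AS knockdown PTTG1 (securin) had -1.06 and CCNB2 -1.12, whereas CDKN1A, an inhibitor of cyclin-dependent kinases, had 1.68. After YWHAG knockdown CCNB1 had -0.47, NEK2 -0.37 and CDKN1A 0.47, so CDKN1A was above its controls in both experiments.

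The substrates of the FZR1 form were 18 genes, with CDC20, UBE2C, PLK1 and BUB1 counted there too. After LY6K-AS knockdown 18 of 18 were below both controls, against 30.5% of all genes tested, with a median of -0.90 and a range from -1.27 to -0.60. Each had an unadjusted p under 0.05 in limma, against 11.7% of all genes lower and 25.3% in either direction. RRM2, a ribonucleotide reductase subunit, had -1.27 and CDC6, a replication licensing factor, -0.88. FZR1 itself stood at 0.00, and at -0.33 with the GC trend removed. After YWHAG knockdown 16 of 18 were lower, with a median of -0.27 and 2 lower at an unadjusted p under 0.05, against 57.6% of all genes lower and 8.9% lower at that p. FOXM1, a transcription factor of mitotic genes, had -0.56, AURKB, an aurora kinase, -0.40 and TK1, thymidine kinase, 0.32.

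Ubiquitin machinery of other kinds served for comparison. Subunits of SCF and related cullin ligases were lower in 9 of 10 after LY6K-AS knockdown, with a median of -0.22, and in 7 of 10 after YWHAG knockdown, with a median of -0.13. Of all genes tested, 49.7% and 57.6% were lower. Both knockdown libraries lay below both controls for 9 of 10 and 5 of 10 of these subunits, against 30.5% and 30.8% of all genes. RBX1, the RING subunit, had -0.57 and SKP1, the SCF adaptor, -0.49 after LY6K-AS knockdown, with CUL4B at -0.31. After YWHAG knockdown FBXW7 had -0.50, SKP1 -0.32 and CUL4A -0.87. The CUL4A value rests on the second knockdown library, at -1.71 against -0.02 in the first. The proteasome core particle was lower in 13 of 14, with a median of -0.22, and in 11 of 14, with a median of -0.13. Its genes lay below both controls in 11 of 14 after LY6K-AS knockdown and in 5 of 14 after YWHAG knockdown. PSMA3, PSMA2 and PSMA4 had -0.58, -0.57 and -0.44 after LY6K-AS knockdown, and PSMB2, PSMA6 and PSMB3 had 0.31, -0.28 and -0.23 after YWHAG knockdown. Beside these medians the core subunits of the APC/C stood at -0.33 and -0.02, CDC20 at -0.76 and -0.12 and FBXO5 at -0.75 and -0.32.

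**Figure D4:**
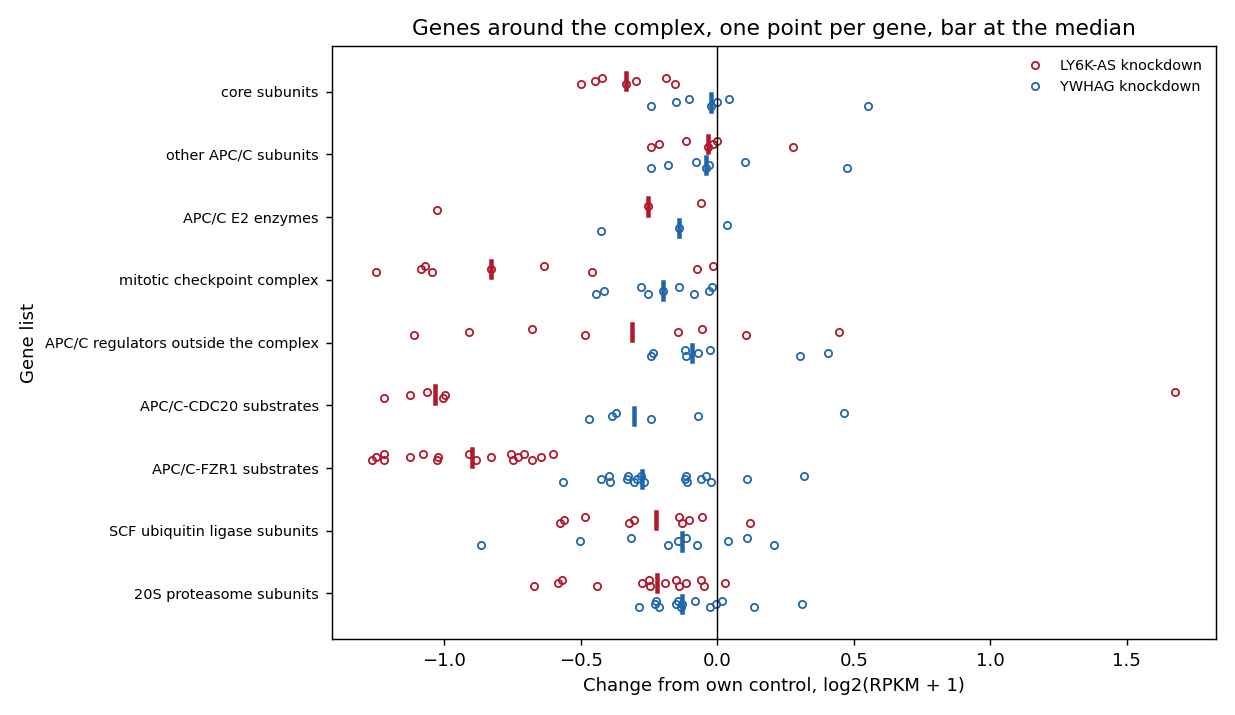
Log2 change from own control of every gene tested in 9 lists around the complex, LY6K-AS knockdown in red and YWHAG knockdown in blue; each circle is 1 gene and each vertical bar the median of its list. Core subunits centre on -0.33 in red, checkpoint genes on -0.83 and FZR1 substrates on -0.90, with blue medians between -0.31 and -0.02.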

How the data were processed

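RNA of 8 A549 libraries was analysed from 2 tables of RPKM that the authors deposited, 1 for each experiment and normalized separately. Per the submitters' processing notes, STAR, featureCounts, Subread and Picard were used with hg38, with no version or role given, and the sources used here do not give strand use. Identifiers were matched to GENCODE release 29 (57055 of 66206 rows, 52238 with the same version). Among rows of the same version, deposited RPKM multiplied by gene length gave whole reads, within 0.05 reads, for 100% of values when length was genomic end minus start in the LNA table and merged exon length in the siRNA table, against 9.72 to 10.3% and 28.2 to 28.7% with the other length. Rows of another version, ANAPC1 and CDC16 among them, were not part of this check. The LNA values were therefore rescaled to merged exon length, and 9151 unmatched rows were left out of its tests.

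Values were tested as log2(RPKM + 1) in limma 3.58.1 (R 4.3.3) with a mean-variance trend, over genes of at least 0.5 RPKM in at least 2 of 4 libraries, with p-values adjusted by Benjamini and Hochberg's method at 0.05. A fold change on this scale understates the change of low genes. Libraries were grouped by their titles, except the siRNA control columns, which are numbered 2 and 3 where the sample titles have 1 and 2. These columns were assigned to the scramble siRNA group only, and which sample each holds is not known. Each comparison used its own 4 libraries and the difference of effects all 8. With 2 against 2 libraries a two-sided exact permutation test cannot go below 0.333, so none is given. Members had 277 to 6956 reads per library, a counting error of at most 6.01%. The tests were checked on simulated data with the same spread in every group. In the real data the SD of the difference between libraries was 0.158 (scramble LNA) and 0.195 (scramble siRNA). It was 0.396 after LY6K-AS and 0.434 after YWHAG knockdown, so the check does not cover unequal spread. The members and lists were chosen with earlier results of these data known, and the motifs, their window and the ratios were chosen after values had been seen; a first motif search over a window reaching past the start also found a CHR match in ANAPC1. Named genes were all 10 members, both targets, the 3 with the smallest p in each other list and the 5 nearest to CDC20 and to FBXO5, of which 1 is not reported here; KIF20A and the other overlapping genes and the pseudogene CDC20P1 were added after values were seen. Alternatives were other pseudocounts, filters, scalings, spreads, lengths and left-out libraries.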

Additional observations from a re-analysis of the deposited data

Results flagged for a closer look

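CDC23 differed between the experiments in direction: both LY6K-AS knockdown libraries lay below both of their controls and both YWHAG knockdown libraries above both of theirs. The difference of the effects was -0.997 on the log2 scale, and its own test did not pass (limma, adjusted p = 0.0647). CDC23 was singled out among the 10 members after its values had been seen.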

How the results depend on the processing

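Of 30 member results, 21 kept their direction in every alternative, and 37 of 458 alternative values reversed, each for a result between -0.18 and 0.05 in the fits reported. No alternative other than a left-out library took a member past the adjusted threshold. After LY6K-AS knockdown other settings gave FZR1 -0.041 (voom), -0.039 (TMM), -0.013 (no mitochondrial reads), -0.33 (GC trend removed, with or without the replicate block). After YWHAG knockdown other settings gave CDC16 0.034 (voom), 0.032 (TMM), 0.033 (GC trend removed), FZR1 0.011 (voom), 0.0080 (TMM) and CDC27 -0.0095 (no mitochondrial reads). In the difference of effects other settings gave ANAPC5 -0.041 (voom), -0.041 (TMM), FZR1 -0.052 (voom), -0.047 (TMM), -0.30 (GC trend removed) and ANAPC4 0.00080 (GC trend removed), 0.011 (as deposited). After LY6K-AS knockdown leaving out a library gave -0.076 to 0.084 for FZR1. After YWHAG knockdown leaving out a library gave -0.25 to 0.047 for ANAPC1, -0.083 to 0.040 for CDC16, -0.017 to 0.10 for ANAPC7, -0.067 to 0.069 for CDC27 and -0.14 to 0.064 for FZR1. In the difference of effects leaving out a library gave -0.060 to 0.14 for FZR1, -0.039 to 0.15 for ANAPC5 and -0.42 to 0.053 for ANAPC4. The causes were not tested.

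Calls over all genes were 0 in both comparisons except with a spread pooled over 8 libraries, which gave 64 after LY6K-AS and 214 after YWHAG knockdown, and with LY6K-AS libraries left out, where the range was 0 to 7725 (7725 without the first and 4350 without the second). At an unadjusted p under 0.05 limma gave 3706 and 2281 genes. The difference of effects gave 23 calls, against 5 with no filter, 72 at RPKM of at least 2, 66 with voom, 50 with TMM, 5 without mitochondrial reads, 43 with LNA values as deposited, and 0 to 1185 with 1 library left out. The gap of CDC20 and FBXO5 to the core was -0.59 after LY6K-AS knockdown with the GC trend removed, with or without the replicate block, and -0.45 to -0.28 with a library left out. After YWHAG knockdown it was -0.23 with voom, -0.23 with the GC trend removed and -0.23 to -0.18 with a library left out. It has no value with LNA values as deposited, where ANAPC1 fell under the filter. Among genes at an unadjusted p under 0.05 after YWHAG knockdown, 54.2% were lower, against 42.3% with TMM and 42.9% with the GC trend removed, and after LY6K-AS knockdown 46.4% were lower, against 53.8% with TMM and 52.6% with the GC trend removed.

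The replicate block gave 0 calls in the LNA table. Deviations of libraries with the same sample number correlated at 0.08, with only 2 pairs. The numbers in the knockdown titles do not all match those in the control titles and may mark oligonucleotides. The correlation therefore cannot decide on pairing, and the numbers are not taken to pair libraries. No paired analysis was possible in the siRNA table because its control columns carry other numbers. With 2 libraries a group, even the member nearest to 0 after LY6K-AS knockdown, FZR1, has an interval from -0.28 to 0.28.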
